A study of Mus musculus with 27 samples.

Results

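Whole hearts of mice aged 1.5 years were compared with whole hearts of mice aged 14 weeks by RNA-seq, with gene counts as the measurement. All genes placed on a chromosome other than X or Y were taken, which gave 21198 of the 22855 genes in the table, and 17050 of these had enough reads to be tested. The series holds 27 samples, of whole heart and of sorted cardiac fibroblasts at 5 ages, and 6 of them enter this comparison. The animals of both groups were C57Bl/6 mice with no treatment or modified allele, and 3 hearts from separate animals were sequenced at each age. The labels give no sex. Whole heart holds cardiomyocytes together with fibroblasts, endothelial cells, smooth muscle and blood cells, so a level here is a sum over all of them, and fewer cells of a type and less RNA per cell cannot be told apart.

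The adult heart is a muscle that beats without rest, and its cardiomyocytes are filled with sarcomeres, a calcium store that is emptied and refilled at each beat, and mitochondria that burn mainly fatty acids. The matrix around them is made largely by fibroblasts, and cardiac ageing in mammals is known for collagen deposition, a rise of inflammatory cells, and slower calcium uptake. Insulin and growth factor signals set protein synthesis against autophagy, the recycling of cell contents in lysosomes, and many of these genes also follow the time of day or feeding.

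Depth was similar in both groups, from 46091271 to 64467352 gene counts per sample at 14 weeks and from 57651138 to 67969823 at 1.5 years. Heart muscle markers were high in every sample, with a summed level of 12 cardiomyocyte identity genes between 58765 and 76049.6 CPM (a gene's counts scaled to a fixed number of reads per sample, here with edgeR's TMM factors). The hearts of 1.5 years held Xist, the RNA of the inactive X chromosome, at 34.8 to 129 CPM, against 0.125 to 0.414 CPM at 14 weeks. The Y chromosome genes summed to 101 to 126 CPM at 14 weeks and to 0.0368 to 0.445 CPM at 1.5 years. Sex therefore moved with age in these 6 samples, and in every difference below the effect of age and that of sex cannot be told apart. Hearts of 1 year had Y gene sums of 164 to 206 CPM and Xist at 0.281 to 0.570 CPM, so their values are set beside the others as levels, although they share no animals with either group.

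A gene's change went with the length of its transcript. Without any correction, the 2237 tested genes with transcripts under 1000 bases had a median log2 fold change (1.5 years over 14 weeks) of 0.62, while the 735 genes of 8000 bases or more had a median of -0.87. Spearman's rank correlation between length and change was -0.58 over 12539 genes, a description across genes that share the same 6 libraries. The trend stood in each old heart. Relative to the average of the samples, genes near 500 bases lay at 0.411, 0.653 and 1.04 on the log2 scale in the 3 hearts of 1.5 years, and genes near 8000 bases at -0.172, -0.562 and -0.863. The 14-week hearts ran the other way, from -0.263 to -0.129 for genes near 500 bases and from 0.213 to 0.273 near 8000 bases. Nuclear transcripts under 1000 bases took 7.27% ± 0.220 of counts at 14 weeks and 14.3% ± 2.86 at 1.5 years (mean ± SD, n = 3 hearts, groups not overlapping), with a two-sided exact permutation p of 0.1, the smallest that 3 against 3 allows. The cause of this trend was not tested.

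**Figure D1:**
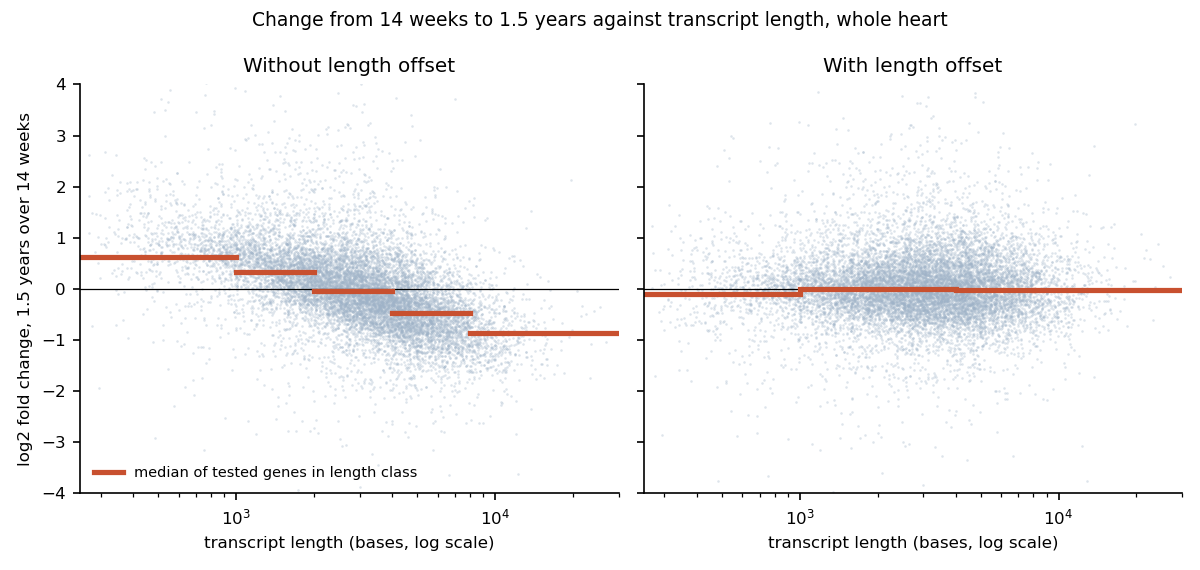
Log2 fold change of each tested gene (vertical axis, 1.5 years over 14 weeks, drawn from -4 to 4) against its transcript length in bases (horizontal log axis), without (left) and with (right) the length offset, with red bars for the median of each length class. The medians run from 0.62 for the shortest class to -0.87 for the longest without the offset and lie between -0.09 and 0.00 with it.

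For this reason each gene is compared here with genes of like length. A length offset was put into the model, a curve against transcript length of each sample's log expression relative to the average of the samples. A fold change with the offset therefore says how far a gene moved from other genes of its length. CPM values carry no such correction, and a long gene can therefore have a rising fold change over nearly level CPM values. With the offset, the class medians lay between -0.09 and 0.00. A gene is said to have risen or fallen only if its adjusted p (edgeR's quasi-likelihood test, Benjamini-Hochberg over all genes tested) was below 0.05. By this rule 323 of the 17050 genes rose, 1.89% of those tested, and 382 fell, which is 2.24%. Every list count below is to be read beside these shares. The median over all tested genes was -0.01. Without the offset 841 genes (4.93%) were called higher and 1386 (8.13%) lower. Both fits shared 204 genes called higher and 333 called lower, and 0 genes were called in opposite directions. Scaling by library size alone, without the offset, gave 1233 rises and 734 falls, so that 62.7% of calls were rises, against 45.8% in the fit used here. The CPM values of 255 of the genes that rose and of 359 of those that fell did not overlap between the groups. The share of non-overlap over all tested genes is not given here, so these counts are a description only. Removing 14-week replicate 3 left 93 rises and 113 falls, and removing 1.5-year replicate 1 gave 465 and 593.

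The 12 rises that ranked highest by the naming rule included genes of immune cells, complement and matrix. S100a9, an alarmin of neutrophils, had 0, 0 and 1 counts in the 14-week hearts and 3.73, 2.88 and 8.89 CPM at 1.5 years. In pooled counts that is 1 against 924, a depth-scaled ratio of 742 with a 95% counting interval from 133 to 29349.5 that covers counting error only, and the adjusted p was 0.0015 (edgeR's quasi-likelihood test). Its 1-year levels were 1.10, 0.463 and 0.221 CPM, so every older heart lay above every 14-week heart. C4b, the complement component cleaved by the classical pathway, stood at 12.04, 8.71 and 8.81 CPM at 14 weeks and at 34.04, 43.03 and 24.95 CPM at 1.5 years (chr17:34728380-34743882, mm10). Its log2 fold change was 2.30 (SE 0.27, adjusted p = 8.6e-04, edgeR's quasi-likelihood test), and the 1-year hearts were already at 38.3 to 49.1 CPM. A near-identical neighbour, C4a, can share its reads, which makes the split between both genes uncertain. Col14a1, a collagen that sits on the surface of fibrils, went from 7.89, 7.17 and 10.9 CPM to 27.5, 29.1 and 20.2 CPM (chr15:55307750-55520803), a log2 change of 2.12 (SE 0.24, adjusted p = 7.1e-04). Each of these 3 genes remained called whichever of the 6 samples was left out.

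Surface and signalling genes of leukocytes stood in the same group. Rac2, a GTPase of blood cells, was at 3.65 to 4.27 CPM in the young and at 10.2 to 18.8 CPM in the old hearts (log2 fold change 2.03, SE 0.39, adjusted p = 0.00829). C5ar1, the receptor for the complement fragment C5a, was at 3.67 to 7.66 against 19.97 to 20.96 CPM (1.77, SE 0.42, adjusted p = 0.0259). Selplg, the selectin ligand of rolling leukocytes, had 1.80 to 5.92 and 10 to 21.5 CPM, and Ptafr, the receptor for platelet-activating factor, 1.82 to 3.75 and 7.10 to 9.53 CPM. Non-overlap between the groups was part of the naming rule and is no result here. All 4 calls depended on the samples: Rac2 was lost without 14-week replicate 3, Selplg without any one of 14-week replicates 1 and 2 and 1.5-year replicates 2 and 3, and C5ar1 and Ptafr with any sample left out other than 1.5-year replicate 1.

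The remaining 5 of the 12 rises have other roles. Aff3, a nuclear protein of transcription elongation complexes, went from 3.83, 2.21 and 1.60 CPM to 8.70, 10.1 and 7.62 CPM (log2 fold change 2.37, SE 0.42, adjusted p = 0.00596). Mcm5, part of the helicase that opens replication origins, was at 1.85 to 4.10 CPM and then at 5.77 to 11.8 CPM. Psat1, an enzyme of serine synthesis, had 1.52 to 2.71 and 5.68 to 9.68 CPM, and Ece2, an endothelin-converting enzyme, 2.87 to 3.06 and 8.08 to 10.5 CPM. Rps20, a protein of the small ribosomal subunit, rose from 161, 121 and 156 CPM to 330.3, 355 and 496 CPM. Aff3 and Rps20 remained called in all 6 fits with a sample left out. Mcm5 lost its call without any one of 14-week replicates 2 and 3 and 1.5-year replicates 2 and 3, Psat1 without 14-week replicate 2 or 3, and Ece2 with any sample left out other than 1.5-year replicate 1.

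**Figure D2:**
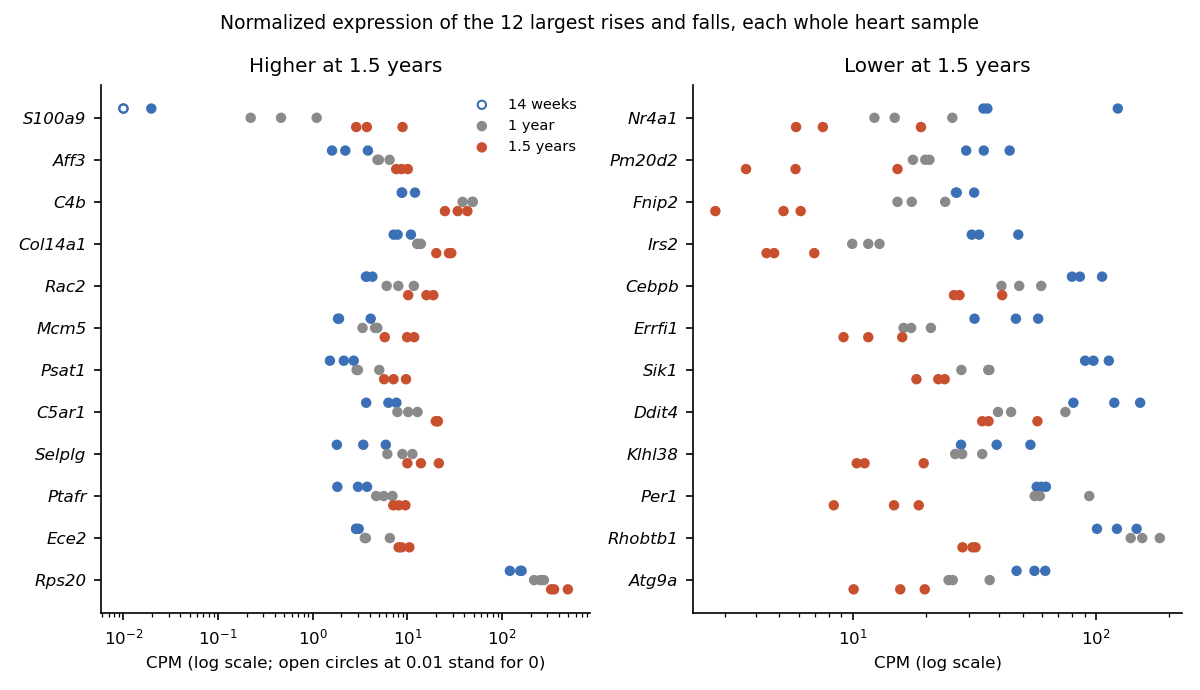
Level in CPM (horizontal log axis) of the 12 rises (left) and 12 falls (right) that ranked highest by the naming rule, with 1 point per heart and a colour for each of the 3 ages. Open circles at 0.01 stand for a level of 0, and the naming rule took only genes whose 14-week and 1.5-year points do not overlap.

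The 12 leading falls held genes of insulin, growth factor and cyclic AMP signalling. Irs2, the adaptor through which the insulin receptor acts, went from 30.9, 48.0 and 33.1 CPM to 4.76, 6.96 and 4.43 CPM (log2 fold change -2.16, SE 0.30, adjusted p = 0.00184, edgeR's quasi-likelihood test). Fnip2, a partner of folliculin at the lysosome, fell from 31.6, 26.8 and 26.6 CPM to 5.20, 6.12 and 2.73 CPM (-2.37, SE 0.26, adjusted p = 7.1e-04). Sik1, a kinase induced by cyclic AMP, had 97.7, 113 and 90.3 CPM in the young hearts and 18.3, 22.5 and 23.9 CPM in the old. Irs2 and Sik1 were at 9.97 to 12.9 and 28.0 to 36.5 CPM at 1 year, between both other ages. Errfi1, a feedback inhibitor of the EGF receptor, was at 31.7 to 57.9 CPM and then at 9.18 to 16 CPM, and Cebpb, a transcription factor of metabolism and inflammation, at 79.7 to 106 and then at 26.1 to 41.2 CPM. Ddit4, an inhibitor of mTORC1, had 80.8 to 152 CPM and 34.1 to 57.5 CPM. Of these 6 genes, Ddit4 lost its call without 14-week replicate 3, and the other 5 remained called with any sample left out.

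Per1 and Rhobtb1 fell at 1.5 years but were not low at 1 year. Per1, a repressor of the circadian clock that hormones and light also induce, stood at 59.7, 62.3 and 57.1 CPM at 14 weeks and at 8.37, 18.7 and 14.8 CPM at 1.5 years (log2 fold change -1.65, SE 0.33, adjusted p = 0.00972). The 1-year hearts had 58.8, 56.0 and 93.9 CPM. Rhobtb1, an atypical small GTPase, went from 122, 101 and 147 CPM to 31.1, 28.3 and 32.0 CPM (-1.63, SE 0.22, adjusted p = 0.0015), and was at 139 to 183 CPM at 1 year. Nr4a1, an orphan nuclear receptor of the immediate early class, had 123 CPM in 14-week replicate 2 against 35.8 and 34.5 CPM in the other two, and 5.86 to 19.1 CPM at 1.5 years. Its log2 fold change was -2.61 (SE 0.61, adjusted p = 0.0229), and the call was lost without 14-week replicate 2 or without 1.5-year replicate 2 or 3. Pm20d2, a peptidase, was at 29.3 to 44.2 and 3.65 to 15.3 CPM, Atg9a, the membrane carrier of early autophagosomes, at 47.2 to 61.9 and 10.1 to 19.8 CPM, and Klhl38, a muscle gene of the kelch family, at 27.9 to 53.8 and 10.4 to 19.6 CPM. Klhl38 lost its call without 14-week replicate 3.

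Of the 12 falls 3 carry in a promoter the E-box CACGTG, the element bound by clock factors and by other proteins of the same class, and their windows are shown because the fall of a clock gene stands among them. The windows run from 250 bases before to 50 bases after a RefSeq transcript start (GRCm38.p6) and are written 5′ to 3′ on the gene's strand with the E-box in capitals. Per1 (chr11:69098699-69098998, plus strand) and Rhobtb1 (chr10:69212407-69212706, plus strand) are shown by the one of their 2 and 3 windows that holds the element, which lies within the annotated gene, and Irs2 (chr8:11008880-11009179, minus strand) by its single window at the upstream end of the gene.
Per1: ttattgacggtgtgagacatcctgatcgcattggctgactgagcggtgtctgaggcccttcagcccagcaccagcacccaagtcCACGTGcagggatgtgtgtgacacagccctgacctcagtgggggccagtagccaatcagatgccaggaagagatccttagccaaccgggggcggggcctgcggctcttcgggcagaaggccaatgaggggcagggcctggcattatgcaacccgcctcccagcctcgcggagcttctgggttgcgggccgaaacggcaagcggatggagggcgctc
Irs2: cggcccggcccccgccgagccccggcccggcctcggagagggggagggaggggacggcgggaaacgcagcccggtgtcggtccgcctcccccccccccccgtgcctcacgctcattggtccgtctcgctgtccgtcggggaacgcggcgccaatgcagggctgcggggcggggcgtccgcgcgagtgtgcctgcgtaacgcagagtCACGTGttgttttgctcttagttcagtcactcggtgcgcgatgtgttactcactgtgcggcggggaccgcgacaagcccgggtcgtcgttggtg
Rhobtb1: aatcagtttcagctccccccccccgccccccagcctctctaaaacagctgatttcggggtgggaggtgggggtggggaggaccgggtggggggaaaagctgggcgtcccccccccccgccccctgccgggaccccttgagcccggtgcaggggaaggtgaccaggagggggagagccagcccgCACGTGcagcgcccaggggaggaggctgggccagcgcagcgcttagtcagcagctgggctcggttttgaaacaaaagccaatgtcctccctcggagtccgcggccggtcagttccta
The element begins 166 bases before the start in Per1, 44 in Irs2 and 67 in Rhobtb1. It was found in 3 of the 10 falls and in 0 of the 7 rises that had a window, against 8.09% of 27025 genes with windows. The cyclic AMP element TGACGTCA was found in Errfi1 among the falls and in Mcm5 among the rises, and in 2.03% of all genes. Both motifs read the same on both strands and were chosen after the values were seen, so the matches are a description.

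Collagen and proteoglycan genes were among the rises relative to genes of like length, although most members did not pass. Of 11 fibrillar collagen genes tested 4 rose and 0 fell, with a median log2 fold change of 0.73, against 1.89% of rises and a median of -0.01 over all tested genes. Col1a1, the main chain of type I collagen, had 102, 79.3 and 115 CPM at 14 weeks and 127, 141 and 121 CPM at 1.5 years (log2 fold change 1.00, SE 0.18, adjusted p = 0.00607, edgeR's quasi-likelihood test). Col3a1, the chain of type III collagen, had 213, 129 and 202 CPM and then 249, 255 and 179.8 CPM, which overlap, and a log2 fold change with the offset of 0.87 (SE 0.19, adjusted p = 0.0181). Col1a2 and Col5a1, partner chains in type I and V fibrils, were at 0.73 and 0.89. The size of these calls rests on the offset: without it 0 of the 11 were called and Col1a1 was at 0.40 (adjusted p = 0.113). Of the 4 rises only Col1a1 remained without 14-week replicate 2.

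Among 27 other collagens 2 rose, Col14a1 and Col6a2, a chain of the collagen VI network around cells (97.6 to 123 CPM against 146 to 170.1 CPM, log2 fold change 0.87). Matrix glycoproteins and proteoglycans gave 7 rises and 0 falls of 38, with a median of 0.51. Lum, a proteoglycan that spaces collagen fibrils, went from 51.5, 52.2 and 46.0 CPM to 152, 129.8 and 122 CPM, a log2 change of 1.38 (SE 0.25, adjusted p = 0.00738) that was 1.43 without the offset. Thbs4, a thrombospondin of stressed muscle, went from 3.72, 2.92 and 5.73 CPM to 11.8, 10.3 and 12.8 CPM (1.62, SE 0.32, adjusted p = 0.0104). Lum and Thbs4 did not overlap between the groups in CPM, whereas Vcan, a large proteoglycan, did, with 12.5 to 15.98 and 13.6 to 32.8 CPM and a log2 fold change of 1.49. Vcan was not called when the shortest annotated transcript set its length (0.64, adjusted p = 0.249). Fbn1, the fibrillin of elastic microfibrils, had a log2 fold change of 0.86 with the offset and 0.01 without it. Without the offset the other collagens had 1 call higher and 3 lower, and the glycoproteins 5 higher and 4 lower. Without 14-week replicate 2, 2 of the 7 glycoprotein rises remained.

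Proteases and receptors of the matrix moved in both directions. Of 25 proteases and inhibitors 3 rose and 2 fell, against 1.89% of rises and 2.24% of falls over all tested genes. Mmp14, a membrane-bound collagenase, had 18.5, 18.6 and 19.8 CPM in the young and 47.8, 33.7 and 33.5 CPM in the old hearts (log2 fold change 1.00, SE 0.18, adjusted p = 0.00601, edgeR's quasi-likelihood test). Adamts5, which cuts proteoglycans, rose by 1.21 with the offset, and Adamts1, another protease of this family, fell from 37.5, 48.9 and 43.8 CPM to 19.7, 14.1 and 10.5 CPM (-1.14, SE 0.21, adjusted p = 0.00695). These 3 calls remained whichever sample was left out. Mmp16, a protease listed among the falls, rested on few reads, with 103 counts at 14 weeks and 1 at 1.5 years, a ratio of 128 (95% counting interval 22.5 to 5113), and its call was lost with any sample left out. Of 20 genes of collagen processing and cross-linking 0 rose and 0 fell. In the TGF-β pathway 2 of 25 genes rose, the receptors Acvrl1 (31.5 to 46.2 CPM against 64.2 to 67.9 CPM) and Tgfbr2 (48.7 to 58.2 against 44.1 to 64.0 CPM). Both were lost without 14-week replicate 2.

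Of 12 fibroblast markers 5 rose and 7 did not pass, against 1.89% of rises over all tested genes, with a median of 0.70. Of the 5, Lum, Col1a1, Col1a2 and Col3a1 are matrix genes already described, so that Pi16 is the 1 further rise. The summed CPM of all 12 markers was higher in every old heart than in every young one. The sums were 2370.3 to 2961 CPM at 14 weeks, 2303 to 3366 CPM at 1 year and 3377 to 3814 CPM at 1.5 years. Gsn, the marker with the highest CPM, weighs most in them. It had 1340.0 to 1711 and 1709 to 2081 CPM, which overlap, and did not pass. Pdgfra, the receptor used to sort these cells, had 46.6, 31.4 and 40.6 CPM and then 39.8, 34.4 and 28.6 CPM (log2 fold change 0.46, SE 0.21, adjusted p = 0.24). Dcn, the most abundant fibroblast proteoglycan here, had 433 to 506 and 586 to 726 CPM, with a log2 fold change of 0.22 (adjusted p = 0.59), and Postn, a marker of activated fibroblasts, 23.4 to 28.2 and 39.4 to 61.1 CPM (1.01, SE 0.36, adjusted p = 0.124). The part that the number of fibroblasts has in the matrix changes was not tested.

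**Figure D3:**
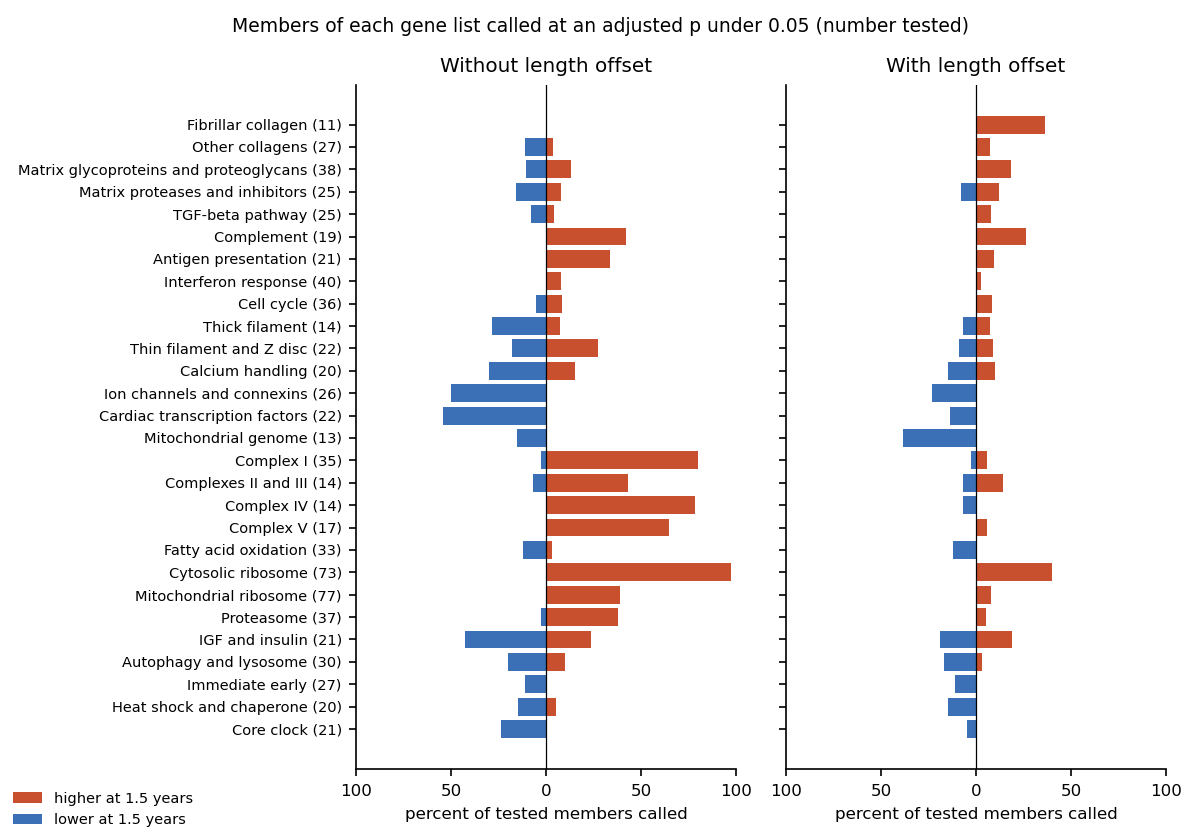
Percent of the tested members of each gene list (number tested in brackets) called higher (red, to the right) or lower (blue, to the left) at 1.5 years, without the length offset on the left and with it on the right. Without the offset 71 of 73 cytosolic ribosome and 28 of 35 complex I genes were called higher, and with it 29 and 2, while fibrillar collagens went from 0 to 4 of 11.

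Of 19 complement genes tested 5 rose, 0 fell and 14 did not pass, with a median of 0.60, against 1.89% of rises over all tested genes. Without the offset 8 were called higher. C3, the central component, went from 169.6, 125 and 194 CPM to 353, 277 and 251 CPM (log2 fold change 1.33, SE 0.22, adjusted p = 0.00481, edgeR's quasi-likelihood test), and the 1-year hearts had 267 to 388 CPM. C1qc, a chain of the recognition molecule C1q made by macrophages, had 59.3 to 66.5 CPM and then 108 to 169 CPM (0.70, SE 0.14, adjusted p = 0.0123). C1s1, the protease of the C1 complex, had 19.6, 21.9 and 20.3 CPM and then 54.7, 35.1 and 31.5 CPM. With C4b and C5ar1 these are the 5. C3 and C4b remained with any sample left out, and these 2 alone were left without 14-week replicate 1 or 3.

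Of 21 antigen presentation genes 2 rose, against 1.89% of all tested genes, with a median of 0.67, and without the offset 7 were called higher. H2-D1, a class I molecule, had 139, 179 and 163 CPM and then 248, 377 and 359 CPM (0.87, SE 0.22, adjusted p = 0.0377). H2-Eb1, a class II chain of antigen-presenting cells, was at 44.9 to 52.1 and 89.5 to 141 CPM, with 84.7 to 215 CPM at 1 year. Of 40 interferon response genes only Ifi27l2a rose (11.6 to 13.4 against 28.7 to 58.3 CPM), with a list median of 0.56, and 3 were called higher without the offset. All 3 calls were lost with any sample left out other than 1.5-year replicate 1, and all 3 genes have close relatives that can share reads. Of 31 chemokines and cytokines 0 passed the test.

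Summed levels of blood and immune cell markers, which carry no length correction, were higher in the old hearts. The 16 macrophage markers summed to 469 to 520.1 CPM at 14 weeks, to 743 to 867 CPM at 1 year and to 753 to 977 CPM at 1.5 years. The 10 T and NK cell markers summed to 0.607 to 3.35 and 5.88 to 16.3 CPM, and the 5 red blood cell markers, 4 of them haemoglobin genes, to 284 to 364 and 655 to 1574 CPM. All 3 sums were higher in every old heart than in every young one. With the offset 1 of 16 macrophage markers (C1qc), 0 of 10 tested T and NK cell markers and 0 of 5 tested red cell markers rose, and without it 4 of the 16 and 4 of the 5 were called. Of 12 endothelial markers 2 rose and 10 did not pass, against 1.89% of rises over all tested genes. Without 14-week replicate 1 or 2, 0 of the 2 remained. Vwf, the carrier of clotting factor VIII, was at 47.9, 55.0 and 99.7 CPM and then at 125, 119.8 and 122 CPM (log2 fold change 1.71, SE 0.34, adjusted p = 0.00962, edgeR's quasi-likelihood test), and at 151 to 234 CPM at 1 year. It was called neither with the shortest transcript nor without 14-week replicate 1 or 2. Of 10 smooth muscle and pericyte markers 2 rose, 1 fell and 7 did not pass, with a median of 0.30. The shares over all tested genes were 1.89% of rises and 2.24% of falls. Acta2 and Tagln, actin and an actin-binding protein of smooth muscle, rose by 0.74 and 1.10 and Abcc9, part of a potassium channel of pericytes and muscle, fell by 0.70. With any sample left out other than 1.5-year replicate 1, 0 of the 2 rises remained. What these cells contribute to the complement and leukocyte genes was not tested.

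The contractile apparatus changed in a few members. Myh6, the main motor of the adult mouse ventricle, was level for its length, with 21146, 23615 and 22622 CPM at 14 weeks, 14081, 14166 and 15171 CPM at 1.5 years and a log2 change of -0.00 (SE 0.18, adjusted p = 1). Without the offset the same gene was called lower, at -0.63. Myh7, the slow motor of the fetal ventricle, rose from 191, 138 and 98.6 CPM to 432, 488 and 236 CPM (2.01, SE 0.47, adjusted p = 0.0225, edgeR's quasi-likelihood test), and had 72.6, 64.7 and 308 CPM at 1 year. Its call was lost without 14-week replicate 2 or 3 or 1.5-year replicate 2. Of 14 thick filament genes Myh7 rose and Ttn, the giant spring of the sarcomere, fell. Ttn, whose length was taken as 100404 bases, had 3101 to 3923 CPM against 621 to 1094 CPM. Its log2 fold change was -2.04 without the offset and -0.58 with it (adjusted p = 0.0373, edgeR's quasi-likelihood test). The call with the offset was lost with any sample left out. Of 22 thin filament and Z disc genes 2 rose and 2 fell, against 1.89% of rises and 2.24% of falls over all tested genes. Lmod2, a leiomodin that lengthens thin filaments, fell from 722, 852 and 721 CPM to 431, 366 and 435 CPM (-1.09, SE 0.17, adjusted p = 0.00366), and its relative Lmod3 was at 122 to 153 and 60.9 to 101 CPM. Lmod2 remained called with any sample left out, and Lmod3 was lost without 14-week replicate 2 or 3.

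Stress genes did not move as a group. Of 16 tested 2 rose (Myh7 and Ucp2, a mitochondrial carrier) and 2 fell. Ankrd1, a stretch-responsive protein of the titin spring, went from 895, 748 and 740.2 CPM to 482, 537 and 451 CPM (log2 fold change -0.88, SE 0.19, adjusted p = 0.014). Cyr61, a matrix-associated growth regulator, was at 59.4 to 84.1 and 33.5 to 44.2 CPM. The natriuretic peptides, classical signs of cardiac load, did not pass: Nppb had 209, 274 and 188 CPM and then 599, 633 and 440.4 CPM, with a log2 change of 0.64 (SE 0.34, adjusted p = 0.296) with the offset and 1.32 (adjusted p = 0.0207) without it. Nppa was at 88.2 to 117 and 132 to 214 CPM (0.12, adjusted p = 0.955). Both are short transcripts, and neither overlapped between the groups in CPM. Ankrd1 lost its call without 14-week replicate 1 or 1.5-year replicate 3.

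Of 20 calcium handling genes 3 fell and 2 rose, against 2.24% of falls and 1.89% of rises over all tested genes. Their median was -0.12, and among the falls were the channel and the pump of the calcium store. Ryr2, the channel that releases calcium from the store, went from 1267, 1346 and 1443 CPM to 548, 396 and 340.0 CPM, with a log2 fold change of -0.59 with the offset (SE 0.11, adjusted p = 0.00818, edgeR's quasi-likelihood test) and -1.66 without it. Atp2a2, the pump SERCA2 that refills the store, had 12516, 12846 and 14199 CPM and then 6951, 6786 and 5257 CPM (-0.51 with the offset, SE 0.11, adjusted p = 0.0143, and -1.06 without it). Hearts of 1 year lay between, with 888 to 1130.0 CPM of Ryr2 and 8351 to 9225 CPM of Atp2a2. Casq2, the calcium buffer of the store, had 1012 to 1127 and 754 to 833 CPM. Sri, a small calcium-binding protein, rose by 0.64. Ryr2 remained called whichever sample was left out, and it alone of the 3 falls remained without 14-week replicate 2 or 3.

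Of 26 ion channel and connexin genes 6 fell and 0 rose, against 2.24% of falls over all tested genes, with a median of -0.45, and without the offset 13 were called lower. Kcna5, a repolarizing potassium channel, went from 49.3, 34.0 and 36.9 CPM to 17.6, 11.7 and 13.7 CPM (-1.44, SE 0.26, adjusted p = 0.00615, edgeR's quasi-likelihood test), and was at 10.8 to 18.2 CPM at 1 year. Kcnj12, an inward rectifier, had 30.7 to 33.6 and 14.5 to 17.9 CPM, and Gja1, the connexin of ventricular gap junctions, 413 to 455 and 234 to 303 CPM. In each of these 3 every old heart was below every young one. Without 14-week replicate 3, Kcna5 was the 1 of the 6 that remained. Chrm2, the muscarinic receptor that slows the heart, went from 112, 126 and 124 CPM to 44.8, 42.5 and 20.9 CPM (-1.22, SE 0.25, adjusted p = 0.0107), and Corin, the protease that activates natriuretic peptides, was at 151 to 205 and 53.7 to 86.5 CPM. These were the 2 falls among 22 natriuretic and adrenergic genes, and Corin was lost with any sample left out other than 1.5-year replicate 1.

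Of 22 cardiac transcription factors 3 fell and 0 rose, against 2.24% of falls over all tested genes, with a median of -0.47. Without the offset 12 were called lower, with a median of -0.71. Myocd, a coactivator of muscle genes, went from 66.6, 49.1 and 75.7 CPM to 32.8, 24.1 and 15.3 CPM (-0.96, SE 0.20, adjusted p = 0.0143). Gata6, a zinc finger factor of heart development, had 70.7 to 74.8 and 36.4 to 51.0 CPM, and Ppara, the receptor that drives fatty acid oxidation genes, 31.2 to 39.6 and 6.04 to 18.97 CPM. All 3 were lost without 14-week replicate 3 and without 1.5-year replicate 3, and none overlapped between the groups.

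**Figure D4:**
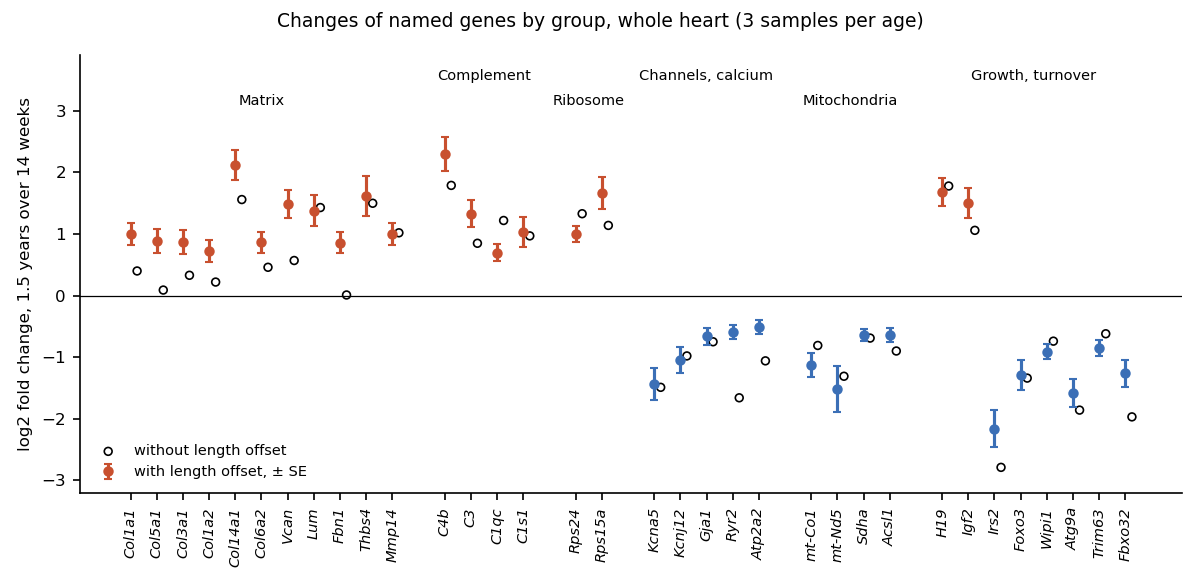
Log2 fold change (vertical axis, 1.5 years over 14 weeks, 3 hearts per age) of genes described in the text, with filled points and standard errors for the fit with the length offset (red for rises, blue for falls) and open circles for the fit without it. Ryr2 lies at -0.59 with the offset and -1.66 without it, and Fbn1 at 0.86 and 0.01.

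Transcripts of the mitochondrial genome took a smaller share of counts, at 29.6%, 34.5% and 27.7% in the 14-week hearts and 26.5%, 18.5% and 18.7% in the hearts of 1.5 years (30.6% ± 3.51 against 21.2% ± 4.55, mean ± SD, n = 3 hearts, exact permutation p = 0.1, the smallest possible). The 1-year hearts had 33.0%, 33.2% and 29.2%. Of its 13 protein genes 5 fell and 0 rose, with a median log2 fold change of -1.52, against 2.24% of falls over all tested genes. Members with few reads lower this median. They are mt-Nd3, mt-Nd4l, mt-Co2, mt-Co3, mt-Atp6 and mt-Atp8, with at most 5.10 CPM in these hearts and standard errors of 0.87 to 2.20. All of them but mt-Nd3 lay below the median, and none passed the test. The members with many reads ran from -0.89 (mt-Nd1) to -1.85 (mt-Nd6). Without the offset 2 of the 13 were called lower. mt-Co1, the catalytic subunit of complex IV, went from 144650.0, 156217 and 129619 CPM to 95494, 82734 and 67887 CPM (-1.13, SE 0.20, adjusted p = 0.0068, edgeR's quasi-likelihood test). mt-Nd2 and mt-Nd5, subunits of complex I, had 1.5-year values of 25504, 13806 and 16807 CPM and of 23156, 11672 and 12270.1 CPM, against 26268 to 42089.9 and 32358 to 50033 CPM at 14 weeks. In all 3 genes 1.5-year replicate 1 was the highest of the old hearts. mt-Co1 was the only one of the 5 that remained without any one of the 14-week samples or of 1.5-year replicates 2 and 3, and reads of mitochondrial genes can also match copies in the nuclear genome.

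Nuclear genes of the respiratory chain showed no common change for their length. Complex I had 2 rises and 1 fall among 35 genes and a median of 0.03, whereas without the offset 28 rises were called with a median of 0.78. The median transcript length of this list was 861 bases, and the cause of the 28 rises was not tested. Ndufab1, an acyl carrier protein of complex I, had 196, 196 and 215 CPM and then 279, 325 and 390.2 CPM (0.90, SE 0.17, adjusted p = 0.00929), and remained called whichever sample was left out. Sdha, the flavoprotein of complex II, fell from 1416, 1434 and 1568 CPM to 922, 949 and 869 CPM (-0.64, SE 0.10, adjusted p = 0.00302) and likewise remained. Complexes II and III gave 2 rises and 1 fall of 14, complex IV 1 fall of 14 and complex V 1 rise of 17. The calls of Sdhc (0.71), Ndufb8 (0.63), Atp5g1 (1.16), Ndufs1 (-0.44) and Cox7a1 (-0.64) were lost when the shortest transcript set the length, and Cox7a1 had a log2 fold change of 0.41 without the offset, the opposite sign.

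Of 33 fatty acid oxidation genes 4 fell and 0 rose, against 2.24% of falls over all tested genes, with a median of -0.27, and without the offset 4 were called lower and 1 higher. Acsl1, which activates fatty acids for oxidation, went from 877, 1021 and 932 CPM to 569.6, 535 and 409 CPM (-0.64, SE 0.11, adjusted p = 0.00441, edgeR's quasi-likelihood test). Etfdh, which passes electrons from fatty acids to the respiratory chain, went from 555, 673 and 632 CPM to 438, 429 and 365 CPM (-0.67, SE 0.13, adjusted p = 0.00829). Both remained with any sample left out. Acadl and Etfa were the other two, at -0.44 and -0.48, and both were lost with the shortest transcript and with any sample left out other than 1.5-year replicate 1. Of 24 genes of glucose use 2 fell and 0 rose, while 3 were called in each direction without the offset. Pdk2, a kinase that restrains pyruvate oxidation, had 689.5 to 721 and 480.1 to 577 CPM, and Pfkfb2, a cardiac regulator of glycolysis, 30.7 to 39.5 and 11.4 to 15.5 CPM. Pdk2 was lost with any sample left out, and Pfkfb2 with any other than 1.5-year replicate 3.

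Of 73 cytosolic ribosome genes tested 29 rose and 0 fell, against 1.89% of rises over all tested genes, with a median log2 fold change of 0.40, and 1.14 without the offset. Their summed level was 12378 to 13317 CPM at 14 weeks, 15903 to 20625 CPM at 1 year and 22609.9 to 34119 CPM at 1.5 years. Rps24 went from 182, 174 and 169 CPM to 363, 399.8 and 560.4 CPM (1.00, SE 0.13, adjusted p = 0.0015, edgeR's quasi-likelihood test), and Rps15a from 81.1, 88.4 and 76.3 CPM to 166, 177 and 201 CPM (1.66, SE 0.26, adjusted p = 0.00365). Both were higher in every old heart than in every young one, and 1.5-year replicate 3, the heart with the steepest length trend, was the highest. Their fold changes with the offset rest on the length of the longest RefSeq-matched transcript, which may not be the one these hearts use. Without 14-week replicate 2, 15 of the 29 remained, and 13 remained whichever sample was left out. Ribosomal protein genes have many processed pseudogenes that can take some of their reads, which makes single members uncertain.

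Without the offset 30 of 77 mitochondrial ribosome, 14 of 37 proteasome and 10 of 31 antioxidant genes were called higher. With it, 6 of the 77 mitochondrial ribosome genes rose, among them Mrpl15 (61.2 to 81.5 against 97.5 to 124 CPM) and Mrpl19 (25.3 to 28.6 against 38.3 to 44.1 CPM), but 1 of the 6 remained when the shortest transcript set the length and 0 without 14-week replicate 2. Of 37 proteasome genes 2 rose, Psma3 of the core and Psmd9, an assembly chaperone, at log2 fold changes of 0.69 and 0.78, and both were lost without 14-week replicate 1 or 2 and without 1.5-year replicate 3. Of 31 antioxidant genes 2 rose, Prdx1 (0.70) and Gpx1 (0.52), which reduce peroxides, and catalase, Cat, fell (258 to 304 against 167 to 238 CPM, -0.49). Each of these was lost in at least 4 of the 6 fits with a sample left out.

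The insulin and growth factor genes that passed went in both directions. Of 21 tested 4 rose (Igf1, Igf2, Igfbp4 and H19), 4 fell (Insr, Irs2, Foxo3 and Klf15) and 13 did not pass. The shares over all tested genes were 1.89% of rises and 2.24% of falls, and the list median was -0.01. Without the offset 5 were called higher and 9 lower, with a median of -0.68. H19, a maternally expressed non-coding RNA next to Igf2, went from 31.1, 28.0 and 44.8 CPM to 130.2, 98.0 and 129.7 CPM (1.68, SE 0.23, adjusted p = 0.00178, edgeR's quasi-likelihood test). Igf2, a growth factor of fetal life, went from 25.2, 29.1 and 35.1 CPM to 58.1, 56.7 and 71.0 CPM (1.50, SE 0.24, adjusted p = 0.00365), and both genes were as high at 1 year, at 75.0 to 131 and 59.9 to 105 CPM. Foxo3, the transcription factor that insulin signals keep out of the nucleus, went from 102, 87.6 and 121 CPM to 49.7, 34.99 and 38.2 CPM (-1.29, SE 0.25, adjusted p = 0.00829). H19, Igf2, Irs2 and Foxo3 remained called with any sample left out, while the shortest transcript took Igf2 to 0.63 (adjusted p = 0.063) and left 1 of the 4 rises.

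Of 30 genes of autophagy and lysosome 5 fell and 1 rose, against 2.24% of falls and 1.89% of rises over all tested genes. The median was 0.00, and most members did not pass. Wipi1, which binds the lipid of the forming autophagosome, went from 151, 144 and 149 CPM to 83.0, 94.6 and 88.6 CPM (-0.91, SE 0.12, adjusted p = 0.0015). Fbxo32 (atrogin-1) and Trim63 (MuRF1), ubiquitin ligases of muscle breakdown and targets of FoxO factors, went from 191, 128 and 183 CPM to 45.5, 37.8 and 44.7 CPM (-1.26) and from 267, 212 and 255 CPM to 151, 154 and 173 CPM (-0.85). Atg9a and Ulk1, the kinase that starts autophagy, were the other two falls, and Npc2, a cholesterol carrier of lysosomes, rose. Wipi1, Fbxo32, Trim63 and Atg9a remained with any sample left out, and Ulk1 was lost without 14-week replicate 3.

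Chaperones and acute response genes were lower in a few members. Of 20 heat shock and chaperone genes 3 fell and 0 rose, against 2.24% of falls over all tested genes. Hsph1, a nucleotide exchange factor for HSP70, went from 64.0, 68.9 and 109 CPM to 37.1, 23.6 and 28.4 CPM (-1.19, SE 0.21, adjusted p = 0.00583, edgeR's quasi-likelihood test). Bag3, its partner in clearing damaged sarcomere proteins, was at 398 to 452 and 271 to 293 CPM, and Hspd1, the mitochondrial chaperonin, at 237 to 288 and 174 to 188 CPM. Hspa5, the chaperone of the endoplasmic reticulum, had 639, 483 and 809 CPM and then 401, 314 and 389.8 CPM (-0.82, SE 0.18, adjusted p = 0.0158), and was the 1 fall among 20 genes of the unfolded protein response. Hsph1 was the only one of the 3 heat shock falls left without 14-week replicate 3, and Hspa5 was lost without 14-week replicate 1 or 3 or 1.5-year replicate 2. Of 27 immediate early genes 3 fell, Nr4a1, Dusp1 and Klf2, against 2.24% of falls over all tested genes. Dusp1, a phosphatase of MAP kinases, was at 71.6 to 94.4 against 39.0 to 59.1 CPM. Klf2, a factor of flow-exposed endothelium, was at 84.4 to 133 against 73.7 to 84.9 CPM. All 3 were lost without 14-week replicate 2, the sample that was highest in Nr4a1 and in Egr1 (180.2 CPM against 30.9 and 31.3 CPM). In the old group Egr1 and Fos were high in replicate 1, at 101 and 66.4 CPM, against 19.6 to 24.2 and 2.45 to 6.05 CPM in the other two.

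Clock genes show how far apart the 3 ages stood in phase-dependent transcripts. Of 21 core clock genes Per1 alone passed, and it remained called with any sample left out. Arntl (Bmal1), the activator of the clock, was at 20.9, 19.3 and 25.9 CPM at 14 weeks and 27.5, 34.0 and 21.1 CPM at 1.5 years (0.37, SE 0.37, adjusted p = 0.663), but at 0.511, 2.05 and 0.822 CPM at 1 year. Dbp, an output gene that peaks opposite to Arntl, was at 14.2 to 21.9, 12.6 to 18.9 and, at 1 year, 115 to 124 CPM. Per2 was at 7.14 to 11.99, 0.115 to 6.57 and, at 1 year, 23.7 to 51.3 CPM. The 1-year hearts thus stood apart from both groups compared here in these genes, and the time of day of collection was not tested.

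Of 36 cell cycle genes 3 rose, against 1.89% of all tested genes, with a median of 0.53, and without the offset 3 were called higher and 2 lower. The rises were Mcm5, Ccna2, a cyclin of DNA replication (0.553 to 2.23 against 3.18 to 4.31 CPM), and Tpx2, a spindle protein (0.632 to 1.28 against 1.80 to 2.86 CPM). Mki67, the common proliferation marker, was at 5.97, 3.28 and 5.37 CPM and then at 2.00, 2.75 and 0.214 CPM (-0.77, adjusted p = 0.444, edgeR's quasi-likelihood test), and 0 of the 3 rises remained without 14-week replicate 2. None of 21 senescence genes passed. Cdkn2a, which encodes the cell cycle inhibitor p16, had 0 counts in all 3 young hearts and 1.93, 0 and 2.502 CPM at 1.5 years, at least 68.8-fold higher by a floor of 3 counts over the group, with an adjusted p of 0.139. Cdkn1a (p21) was at 36.4 to 84.6 and 52.8 to 62.0 CPM. Of 10 DNA methylation enzymes 0 passed: Dnmt1 was at 12.8 to 22.1 and 15.4 to 27.9 CPM, and Dnmt3a at 47.3 to 52.0 and 19.3 to 39.2 CPM, with log2 fold changes of 0.79 (adjusted p = 0.154) and -0.14 (adjusted p = 0.669). Dnmt3a was called without the offset (-0.94, adjusted p = 0.0134). Kcna1, a potassium channel listed among the Schwann cell markers, had 175 counts at 14 weeks and 0 at 1.5 years, at least 72.6-fold lower by the same floor, and its call was lost with any sample left out.

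The change in whole heart was set against that in sorted cardiac fibroblasts, PDGFRα-positive cells from dissociated hearts with 2 samples at each of the same ages, by the difference of the log2 fold changes in 1 model. Of 19375 genes off X and Y tested, 364 differed, which is 1.88%, with 132 higher and 232 lower in heart. Of the genes named here, 8 fell in heart and rose in fibroblasts, among them signalling and chaperone genes. Cebpb, which fell in heart, was at 56.3 and 53.8 CPM in fibroblasts of 14 weeks and at 458 and 424 CPM at 1.5 years (log2 fold change 2.92, SE 0.33), a difference of -4.82 (SE 0.41, adjusted p = 5.8e-07, edgeR's quasi-likelihood test). Irs2 was at 144 and 173 CPM and then at 442 and 530.3 CPM, a difference of -3.89 (SE 0.51, adjusted p = 1.7e-04). Adamts1, Bag3, Hsph1, Hspa5, Gata6 and Klf2 likewise fell in heart and rose in fibroblasts, with differences of -2.80, -2.42, -2.78, -2.17, -1.49 and -1.87. The fibroblasts had been dissociated and sorted while the whole hearts had not, so tissue and handling cannot be told apart. Xist was at 0.0174 and 0.0702 CPM in fibroblasts of 14 weeks and at 429 and 424 CPM at 1.5 years. Ddx3y of the Y chromosome was at 75.4 and 83.4 CPM and then at 0.0811 and 0.0467 CPM. Age and sex therefore cannot be told apart in the fibroblasts either.

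Some matrix genes differed the other way. Counted in either direction, 1 of 11 fibrillar collagens, 1 of 27 other collagens and 5 of 38 glycoproteins and proteoglycans differed. So did 4 of 25 matrix proteases and inhibitors, among them Adamts1 and Mmp16, which lay lower in heart (-2.80 and -6.11). The share over all genes tested, also in either direction, was 1.88%. Col1a1 was at 4396 and 4526 CPM in fibroblasts of 14 weeks and at 3881 and 2284 CPM at 1.5 years (-0.42, adjusted p = 0.5), and its difference from heart was 1.42 (SE 0.33, adjusted p = 0.0246, edgeR's quasi-likelihood test). Vcan, Adamts5, Fbn1 and Col14a1 had differences of 1.93, 1.57, 1.14 and 1.35, and Thbs4, with 73.4 and 72.4 CPM against 39.8 and 11.4 CPM in fibroblasts, of 3.09 (SE 0.64, adjusted p = 0.0128). Of 19 complement genes 1 differed, C4b, with a difference of 1.56. C3 rose in both, from 4749.7 and 6307 CPM to 18485 and 13199.9 CPM in fibroblasts (1.61, SE 0.37, adjusted p = 0.018), with a difference of -0.29 (SE 0.46, adjusted p = 0.937). Rac2 and H2-D1 rose in both too, with differences of -0.31 (SE 0.68) and -0.52 (SE 0.40). Rps24 fell in fibroblasts, from 345 and 337 CPM to 250 and 216 CPM (-0.63, SE 0.16, adjusted p = 0.0428), and its difference was 1.62 (SE 0.21, adjusted p = 1.7e-04).

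**Figure D5:**
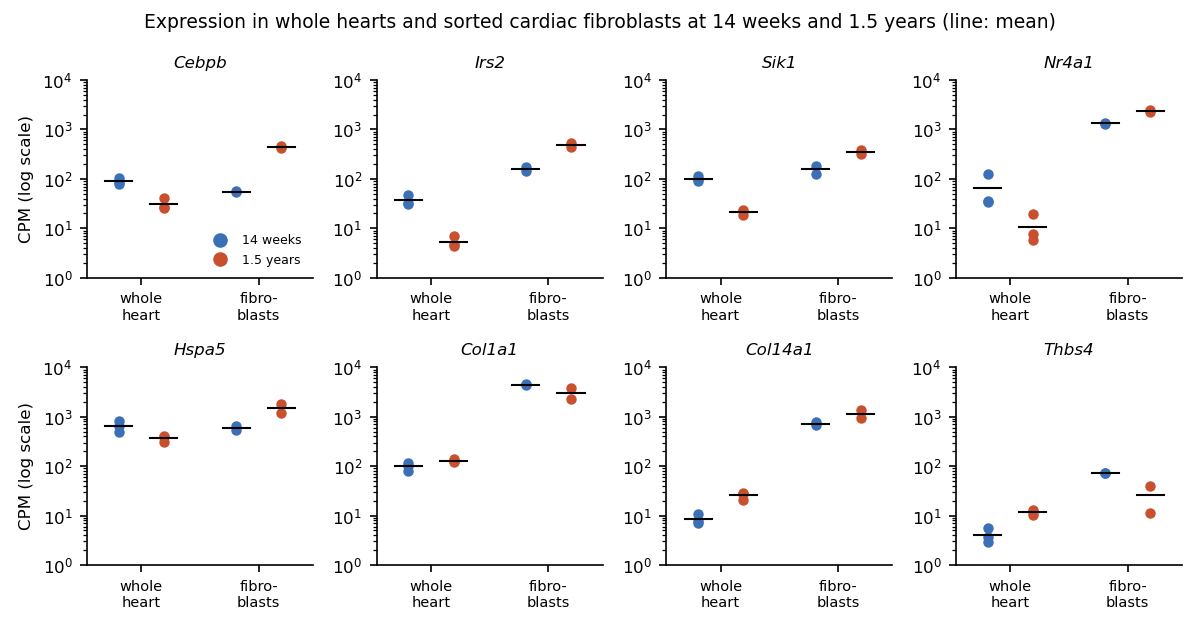
Level in CPM (vertical log axis) of 8 genes in each whole heart sample (n = 3 per age) and each sorted fibroblast sample (n = 2 per age), blue for 14 weeks and red for 1.5 years, with a line at the mean. Cebpb and Irs2 are lower in heart and higher in fibroblasts at 1.5 years, and the Col1a1 levels are higher in heart and lower in fibroblasts.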

How the data were processed

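Polyadenylated RNA of whole hearts was sequenced as single-end reads of 65 bases, and the authors aligned them with STAR 2.5.3a to mm10 and let STAR count reads per gene. The strand column used is not given in the sources used here. The deposited table holds these raw counts, whole numbers with no normalization. Samples were grouped by the labels. Genes were placed with GENCODE M21, and 795 genes without a chromosome stayed in the fit but were not counted. The fit was edgeR 4.0.16 (R 4.3.3) with TMM scaling, the quasi-likelihood test over all 15 whole heart samples and Benjamini-Hochberg adjustment at 0.05, on the 17995 genes that edgeR's expression filter kept. For each sample a lowess curve (span 0.3) of log2 CPM, less the mean over the samples, on transcript length gave the offset. The length was that of the longest RefSeq-matched transcript, and genes with a mean of at least 1 CPM set the curve. Fibroblasts were compared through an interaction term. Shares were tested by exact permutation of the 6 samples. The procedure was tested on simulated data. The 12 named genes in each direction are the protein-coding genes with the largest change among those called the same way with and without the offset, with a mean of at least 5 CPM at 1 of the ages and no overlap in CPM. Up to 4 members per list with the smallest adjusted p, and members that did not pass, were added; members beyond these were chosen after their values were seen. The members and lists were chosen with earlier results of these data known. Alternatives were DESeq2 1.42.0, other scalings, offsets, lengths and filters, a replicate block and each sample left out. A length from the shortest transcript was chosen after seeing the data. The p-values of the fit rest on a spread between animals estimated over all 15 whole heart samples, not over the 6 compared alone. Some genes are not reported here.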

Additional observations from a re-analysis of the deposited data

Results flagged for a closer look

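For 31 of the genes named, the change from 14 weeks to 1.5 years differed between whole heart and sorted fibroblasts by the interaction test of edgeR's quasi-likelihood fit, which called 364 genes, 1.88% of the 19375 tested. Each value is the log2 fold change in heart minus that in fibroblasts, from 3 hearts and 2 fibroblast samples per age. Tissue and cell sorting cannot be told apart in these values, and neither can age and sex.

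Of the genes named, these lay lower in heart, with differences of -4.82 for Cebpb, -3.89 for Irs2, -3.42 for Nr4a1, -3.07 for Sik1, -2.52 for Errfi1, -2.35 for Ddit4, -1.94 for Cdkn1a, -1.90 for Fnip2, -1.87 for Klf2 and -1.49 for Gata6. Chaperones gave -2.78 for Hsph1, -2.42 for Bag3 and -2.17 for Hspa5, and the autophagy and calcium genes -1.67 for Atg9a and -0.92 for Atp2a2. The matrix protease Adamts1 had a difference of -2.80, and Mmp16 one of -6.11 that rests on 1 count in the old hearts and depends on the prior count.

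Among genes of the matrix and complement lists these lay higher in heart, with 3.09 for Thbs4, 1.93 for Vcan, 1.57 for Adamts5, 1.56 for C4b, 1.42 for Col1a1, 1.35 for Col14a1 and 1.14 for Fbn1. The other genes were Dbp at 3.52, Psat1 at 2.51, Aff3 at 2.44, Rps24 at 1.62, Cycs at 1.33, Psma3 at 1.28 and Ndufab1 at 1.25. Dbp passed no test in heart and fell in fibroblasts, from 91.6 and 74.8 CPM to 8.86 and 2.06 CPM.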

How the results depend on the processing

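The count of rises was 323 in the fit reported. It was 841 without the length offset, 1623 with DESeq2 and no offset, 1233 with library size as the only scaling, 543 with at least 10 counts in every sample, 512 with the shortest transcript and 122 when a 2-fold change was also asked for. The count of falls was 382, and under the same settings 1386, 1802, 734, 522, 702 and 141. When only the 6 samples were fitted there were 244 rises and 254 falls, and 413 of these calls were shared with the 705 reported. Leaving out 1 sample gave 91 to 465 rises and 113 to 593 falls: 125 and 168 without 14-week replicate 1, 91 and 158 without 2, 93 and 113 without 3, and 465 and 593, 236 and 299, and 175 and 214 without 1.5-year replicates 1, 2 and 3. Such a fit has 2 samples at one age, and the cause of the larger count without 1.5-year replicate 1 was not tested. The interaction gave 364 genes, 547 without the offset and 1376 with DESeq2. The fall in the share of counts of transcripts of 4000 bases or more was -6.19 percentage points, and -11.5 without the mitochondrial genome in the total. The sign of Cox7a1 turned to 0.41 without the offset, 0.49 with DESeq2 and 0.57 with library size alone, that of Etfa to 0.01 with DESeq2 and 0.09 with library size alone, and that of Pdlim5 to -0.08 with the shortest transcript. No other named gene that was called changed sign in these settings. A block for the replicate number gave 240 rises and 307 falls, 532 of them shared with the 705 reported; same-numbered samples did not deviate together (Pearson's r -0.00254, -0.037 and -0.00825 over 13236 genes), so the numbers do not pair the samples. Of 118 named genes that were called, 42 were called whichever sample was left out, 95 without the offset, 96 with the shortest transcript and 114 with a GC offset added. Of the 12 leading rises and the 12 leading falls, 8 and 11 were called when only the 6 samples were fitted. With the replicate block 10 and 12 were called.

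The labels give no sex, and Xist and the Y genes separate the 6 samples by age, so no alternative here can part age from sex. Lengths are taken from the annotation and not from the transcripts these hearts use. With 3 hearts per age the exact permutation test cannot go below p = 0.1.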

Other observations

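Of 20 cholesterol synthesis genes and 21 angiogenic and vascular signals tested, 0 passed, and the same held for the markers of atrial muscle, ventricular muscle, the epicardium, fat cells, B cells and skeletal muscle. Several mitochondrial genes were far below their partners. In the 6 hearts mt-Co3 had 0.412 to 2.56 CPM, mt-Co2 0.270 to 3.17 CPM, mt-Nd3 0.270 to 5.10 CPM and mt-Atp6 0.181 to 2.87 CPM. mt-Atp8 and mt-Nd4l were at most at 0.612 and 0.237 CPM, against 67887 to 156217 CPM for mt-Co1. Levels of haemoglobin genes were 0.0273% ± 0.00468 of counts at 14 weeks and 0.1003% ± 0.0490 at 1.5 years (mean ± SD, n = 3 hearts).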
